A study of Mus musculus with 10 samples.

Results

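The netrin system was followed through 10 genes: the secreted ligands *Ntn1*, *Ntn3* and *Ntn4*, the receptors *Dcc*, *Neo1*, *Unc5a*, *Unc5b*, *Unc5c* and *Unc5d*, and *Dapk1*, a death-associated kinase that acts downstream of Unc5b. They were taken by name from a table of 18901 genes, all 10 were found there, and all 10 passed the filter on low values that left 17075 genes for testing. Poly(A) RNA of 5 mouse lines was sequenced, with 2 libraries for each line, to compare iPS cells derived in standard conditions or with recombinant Netrin-1 with pre-iPS cells and with the fibroblasts of origin. All lines came from a cross of the mf1 and 129 strains. Oct4-GFP MEF, embryonic fibroblasts with a green fluorescent reporter of *Oct4*, were sampled at passages 2 and 4 and grown in DMEM with serum. Pre-iPS cells, the control iPS line and Netrin-1-derived iPS clones 1 and 2 were each sampled at passages 5 and 25 and grown in KSR medium with LIF. Per the labels, the Netrin-1-derived iPS cells came from Oct4-GFP MEF reprogrammed with Oct4, Sox2, Klf4 and c-Myc retroviruses. The study's methods place such cells on gelatin or on irradiated MEF feeders, and which of them was used for each library was not stated. The control condition is 1 line and the Netrin-1 condition 2 lines, so a difference between conditions and a difference between lines cannot be told apart. The passages of a line are not separate clones. The limma tests between lines used 1 mean per line, so their SE and p-values rest on the spread between the 2 libraries of a line. The spread between the iPS lines is not part of them.

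Netrins are extracellular proteins that steer migrating cells and nerve fibres. Dcc and neogenin, the product of *Neo1*, mediate attraction and adhesion, while the Unc5 receptors mediate repulsion, alone or together with Dcc. Dcc and the Unc5 receptors are also described as dependence receptors, which signal survival when netrin is bound and can trigger apoptosis when it is absent.

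Values are the authors' pseudo-counts, read counts that edgeR brought to a common library size, and they are comparable between libraries but not between genes of different length. The libraries held 38110410 to 52946856 reads on genes, and 1 read was worth 0.888 to 1.18 pseudo-counts. The lines carried the markers of their labels. Summed over 10 fibroblast markers, MEF libraries held 2993526 to 3138226 pseudo-counts, pre-iPS libraries 23066 to 24051 and iPS libraries 22234 to 38444, so the iPS mean was 0.985% and the pre-iPS mean 0.768% of the MEF level. None of the 10 markers was below 10 in all libraries of any line, and single markers ranged from 0.12% (*Lum*) to 19.1% (*Dcn*) of their MEF level in iPS cells. The 6 pluripotency markers summed to 120 to 121 in MEF, 10709 to 11195 in pre-iPS and 12180 to 42699 in iPS libraries, and *Dppa3* was below 10 in the pre-iPS and MEF libraries. Single markers were split in pre-iPS cells. *Zfp42* (6512 and 6101) and *Fgf4* (2409 and 2598) lay within the iPS ranges of 2109 to 15153 and 1804 to 4920. *Nanog* (311 and 349), *Esrrb* (31.6 and 15.4) and *Utf1* (1924 and 1640) lay below every iPS library (lowest 2489, 900 and 4343).

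The ligand *Ntn1* (ENSMUSG00000020902, chr11:68209364-68400823, minus strand, GRCm38) was higher in iPS and pre-iPS cells than in MEF. It stood at 1056 and 1016 pseudo-counts in MEF at passages 2 and 4. The control iPS line had 3727 and 5175 at passages 5 and 25, clone 1 had 5159 and 6205, and clone 2 had 6601 and 4473. Pre-iPS cells had 11258 and 12274. No pre-iPS library overlapped an iPS library and no iPS library overlapped MEF, whereas the 3 iPS lines overlapped each other. A gene was called when limma gave it an adjusted p under 0.05 and the difference was 2-fold or more (1 log2 unit) in either direction. By this test *Ntn1* was 4.95-fold lower in MEF than in the mean of the 3 iPS lines (log2 fold change -2.31, SE 0.17, adjusted p = 2.18e-06). In pre-iPS cells it was 2.29-fold higher than in iPS cells (log2 1.20, SE 0.17, limma adjusted p = 0.000778) and 11.3-fold higher than in MEF (log2 3.50, SE 0.20, limma adjusted p = 1.06e-06). In bulk RNA, fewer cells that express a gene and less RNA per cell cannot be told apart, here and in what follows.

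*Ntn3* and *Ntn4*, the other netrin ligands of the list, took different courses. *Ntn3* (ENSMUSG00000117406, chr17:24203848-24209531, minus strand) had 663 and 700 pseudo-counts in MEF libraries, 162 and 123 in pre-iPS cells and 115 to 214 in the 6 iPS libraries (median 136). It was 4.51-fold higher in MEF than in iPS cells (log2 2.17, SE 0.26, limma adjusted p = 6.3e-05) and did not pass the test between pre-iPS and iPS cells (log2 -0.09, 95% interval -0.69 to 0.51). In the GENCODE M21 annotation 4.46% of its exon length lies in exons of *Tbc1d24* on the same strand and of an antisense transcript. How reads there were counted, or whether they were left out, is not stated in the sources used here. *Ntn4* (ENSMUSG00000020019, chr10:93640681-93747207, plus strand) had 751 and 507 in pre-iPS cells, 177 and 167 in MEF and 85.5 to 294 in iPS libraries (median 177). The pre-iPS libraries were above all others, and *Ntn4* was 3.57-fold higher there than in iPS cells (log2 1.84, SE 0.30, limma adjusted p = 0.00189), while MEF and iPS libraries overlapped (log2 0.00, 95% interval -0.69 to 0.69). Thus pre-iPS cells had the highest *Ntn1* and *Ntn4* of the 5 lines and MEF the highest *Ntn3*.

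*Dcc*, the classical attraction receptor of netrin-1 (ENSMUSG00000060534, chr18:71253634-72351069, minus strand), was found mainly in iPS cells and differed among the iPS lines. The control line had 924 and 773 pseudo-counts at passages 5 and 25. Clone 1 had 306 and 312 and clone 2 had 152 and 184. MEF had 33.5 and 41.1, and pre-iPS cells had 9.18 and 8.64, each from 9 reads. The 5 lines followed in the order control, clone 1, clone 2, MEF and pre-iPS, and no line overlapped the next. *Dcc* was 9.27-fold lower in MEF than in iPS cells (log2 -3.21, SE 0.18, limma adjusted p = 4.53e-07). In pre-iPS cells it was 35.7-fold lower than in iPS cells (log2 -5.16, SE 0.18, limma adjusted p = 2.2e-06) and 3.85-fold lower than in MEF (log2 -1.94, SE 0.22, limma adjusted p = 5.14e-05).

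**Figure D1:**
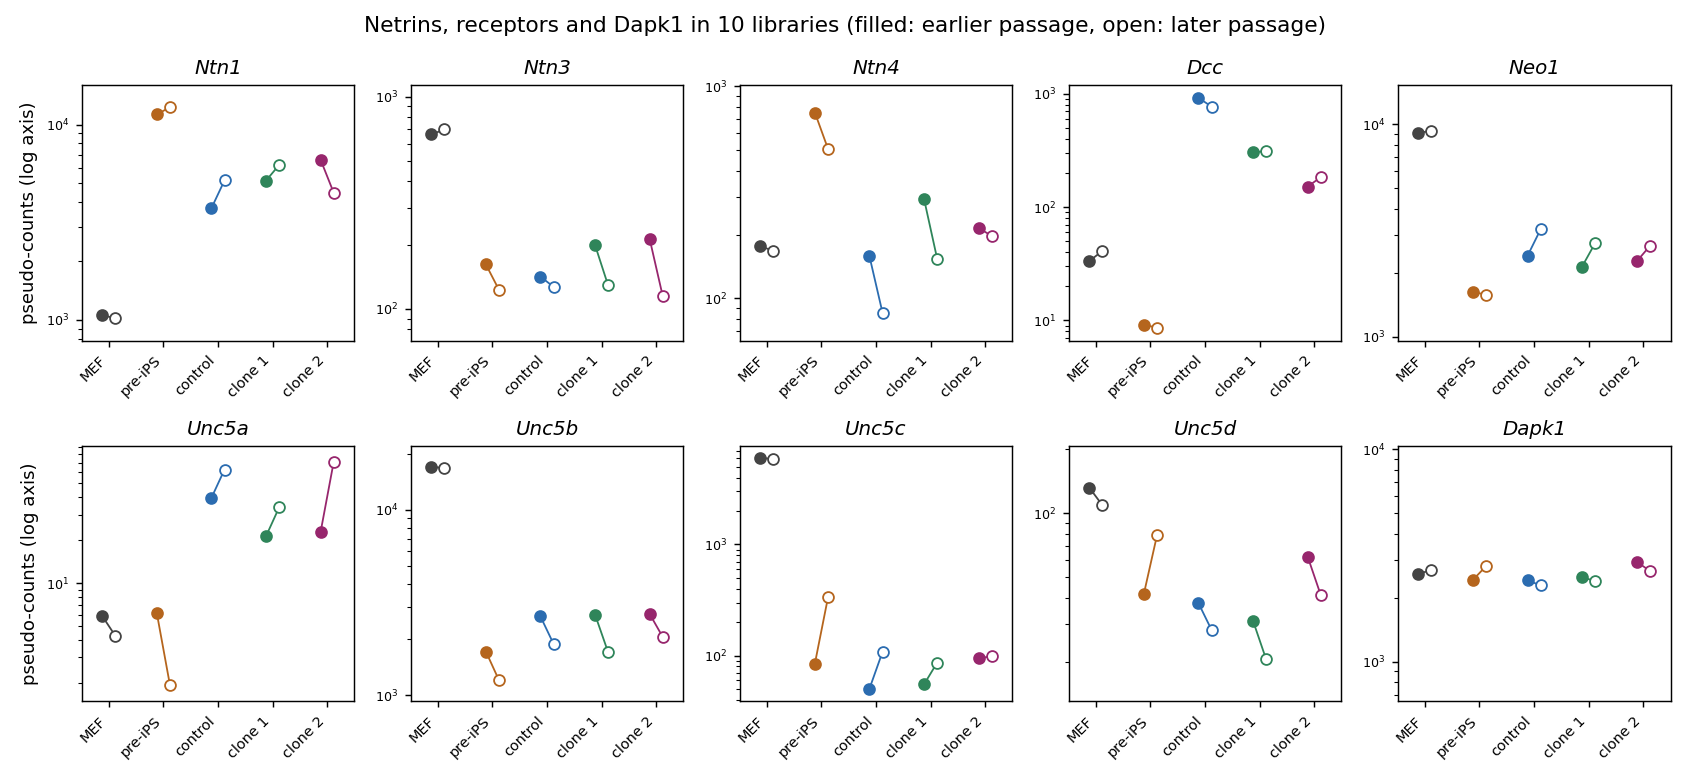
Pseudo-counts of the 10 genes in each library, on a log axis, with the 5 lines along the x axis (filled points the earlier passage, open points the later, joined by a line within a line of cells). *Ntn1* in pre-iPS cells lies above all other libraries at 11258 and 12274, *Unc5b* and *Unc5c* lie highest in MEF, *Dcc* descends from the control line (924 and 773) to pre-iPS cells, and *Dapk1* stays between 2289 and 2957.

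*Neo1* and *Unc5b* were the receptors with the most RNA per exon length in every line, and both were highest in MEF. *Neo1* (ENSMUSG00000032340, chr9:58874687-59036441, minus strand) had 9089 and 9322 pseudo-counts in MEF, 2135 to 3196 in iPS libraries (median 2532) and 1626 and 1572 in pre-iPS cells. *Unc5b* (ENSMUSG00000020099, chr10:60762593-60831581, minus strand) had 17057 and 16805 in MEF, 1706 to 2748 in iPS libraries (median 2362) and 1722 and 1206 in pre-iPS cells. MEF libraries stood apart from all others for both genes. *Neo1* was 3.62-fold higher in MEF than in iPS cells (log2 1.85, SE 0.13, limma adjusted p = 2.05e-06) and *Unc5b* 7.49-fold higher (log2 2.91, SE 0.22, limma adjusted p = 2.88e-06). Between pre-iPS and iPS cells both had an adjusted p under 0.05 but a change smaller than 2-fold. The log2 difference was -0.67 for *Neo1* (SE 0.13, limma adjusted p = 0.00445) and -0.65 for *Unc5b* (SE 0.22, limma adjusted p = 0.0437). The iPS and pre-iPS libraries of *Unc5b* overlapped across passages, since pre-iPS passage 5 had more than clone 1 at passage 25. Within each passage pre-iPS cells lay below all 3 iPS lines, with 1722 against 2661 to 2748 at passage 5 and 1206 against 1706 to 2064 at passage 25, and with passage as a replicate block the same log2 value of -0.65 had a limma adjusted p of 0.000388.

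The other Unc5 receptors were scarcer. *Unc5c* (ENSMUSG00000059921, chr3:141465216-141834924, plus strand) had 5955 and 5933 pseudo-counts in MEF against 50.3 to 108 in iPS libraries (median 90.2), a 74.4-fold difference (log2 6.22, SE 0.48, limma adjusted p = 3.46e-06). Pre-iPS cells had 84.7 at passage 5 and 333 at passage 25. The earlier pre-iPS library lay within the iPS range and the later lay above it. The difference between pre-iPS and iPS cells did not pass the test (log2 1.08, 95% interval -0.01 to 2.18, limma adjusted p = 0.106), and it was 2.06 without the passage 5 pre-iPS library (adjusted p = 0.00926) and 0.10 without the passage 25 library. With passage as a replicate block the same log2 value of 1.08 had an adjusted p of 0.0337 and was called.

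*Unc5d* (ENSMUSG00000063626, chr8:28646717-29219636, minus strand) had 132 and 109 in the MEF libraries, 41.8 and 78.7 in pre-iPS cells and 20.5 to 62.5 in iPS libraries (median 34.4). It was 3.38-fold higher in MEF than in iPS cells (log2 1.76, SE 0.32, limma adjusted p = 0.000822). Against pre-iPS cells it was 2.07-fold higher in MEF (log2 -1.05 for pre-iPS minus MEF, SE 0.39, limma adjusted p = 0.038), a call that was lost without the pre-iPS passage 5 library (log2 -0.60), without MEF passage 2 (log2 -0.91, adjusted p = 0.162) and without MEF passage 4 (log2 -1.18, adjusted p = 0.0814). *Unc5a* (ENSMUSG00000025876, chr13:54949411-55006018, plus strand) ran the other way from the rest of its family between MEF and iPS cells. It had 21.3 to 70.8 in iPS libraries (median 36.8), 5.86 and 4.25 in fibroblasts and 6.12 and 1.92 in pre-iPS cells, the last from 2 reads. It was 6.47-fold lower in MEF (log2 -2.69, SE 0.51, limma adjusted p = 0.00103) and 8.52-fold lower in pre-iPS cells (log2 -3.09, SE 0.51, limma adjusted p = 0.00182) than in iPS cells.

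The bases before the start of *Neo1*, *Unc5b* and *Unc5a* are shown because the first pair moved together between MEF and iPS cells and the last moved against them. They are the 250 bases upstream of the RefSeq start (GRCm38.p6), 5′ to 3′ on the strand of the gene, with matches to the GC box GGGCGG and to the CCAAT box CCAAT, on either strand, in capitals. The windows are chr9:59036442-59036691 (minus strand) for *Neo1*, chr10:60831582-60831831 (minus strand) for *Unc5b* and chr13:54949161-54949410 (plus strand) for *Unc5a*.
Neo1: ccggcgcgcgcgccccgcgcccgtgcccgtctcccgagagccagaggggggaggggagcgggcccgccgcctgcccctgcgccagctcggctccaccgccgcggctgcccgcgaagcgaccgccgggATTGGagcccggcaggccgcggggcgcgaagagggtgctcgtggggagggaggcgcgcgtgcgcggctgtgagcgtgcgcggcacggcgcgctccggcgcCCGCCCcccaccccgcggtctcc
Unc5b: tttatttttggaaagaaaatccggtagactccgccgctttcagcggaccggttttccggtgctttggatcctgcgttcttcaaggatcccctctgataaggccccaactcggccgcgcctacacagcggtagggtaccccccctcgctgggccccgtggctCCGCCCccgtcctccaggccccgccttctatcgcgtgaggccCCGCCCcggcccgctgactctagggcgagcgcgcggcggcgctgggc
Unc5a: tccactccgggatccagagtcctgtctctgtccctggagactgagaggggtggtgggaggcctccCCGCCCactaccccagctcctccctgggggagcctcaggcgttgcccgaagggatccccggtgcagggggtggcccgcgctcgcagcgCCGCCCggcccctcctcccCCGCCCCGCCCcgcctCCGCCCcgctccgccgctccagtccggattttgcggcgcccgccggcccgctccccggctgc
The *Neo1* window held 45 CG dinucleotides, the *Unc5b* window 27 and the *Unc5a* window 25, against a median of 6 over 27025 promoters. RefSeq windows were examined for 7 of the 10 genes, and *Ntn1*, *Dcc* and *Unc5d* were not among them. A GC box was present in 6 of the 7, against 32.9% of all promoters, and a CCAAT box in 1 of the 7 (*Neo1*), against 34.5%. The GC box holds only G and C, and the 7 windows were 66.8% (*Unc5b*) to 83.2% (*Neo1*) G and C, against a median of 52% over all promoters. The part of base composition in the GC box count was not tested. No window of the 7 held the AP-1 motif TGANTCA (6.87% of all promoters), the octamer ATGCAAAT (1.61%), the E-box CACGTG (6.05%) or the TATA box TATAAA (13% of all). The GC boxes of *Unc5a* numbered 5, of which a pair overlapped, those of *Unc5b* 2 and those of *Neo1* 1, so the genes printed here shared this letter pattern. The window of *Unc5c*, which was also higher in MEF than in iPS cells, held no GC box.

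*Dapk1* (ENSMUSG00000021559, chr13:60601947-60763191, plus strand), the kinase at the end of the chain, differed least among lines. It had 2592 and 2700 pseudo-counts in MEF libraries, 2428 and 2817 in pre-iPS cells and 2289 to 2957 in iPS libraries (median 2459). The MEF and pre-iPS libraries lay within the iPS range. The log2 difference was 0.06 between MEF and iPS cells (95% interval -0.11 to 0.24) and 0.05 between pre-iPS and iPS cells (95% interval -0.13 to 0.23), so both intervals excluded a 2-fold change in either direction on the deposited scale. Scaled to the 4 housekeeping genes *Gapdh*, *Actb*, *Hprt* and *Tbp*, the value for MEF against iPS cells was 0.45 (limma adjusted p = 0.000535) and that for pre-iPS cells against MEF was -0.43 (limma adjusted p = 0.00289), both still under 2-fold.

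In all, 8 of the 10 genes were called between MEF and iPS cells, 5 higher in MEF (*Ntn3*, *Neo1*, *Unc5b*, *Unc5c* and *Unc5d*) and 3 lower (*Ntn1*, *Dcc* and *Unc5a*). Over all genes 48.2% were called in this comparison, 21.6% higher and 26.6% lower. The libraries of each of the 8 genes did not overlap between MEF and iPS cells, which gave each the smallest p that the exact two-sided permutation test of 2 against 6 libraries allows (0.0357). The share of all genes without such overlap was not counted, so the lack of overlap and its p are not read as particular to these genes. In this comparison 13546 of all 17075 genes had a limma adjusted p under 0.05. Between pre-iPS and iPS cells 4 of the 10 were called, with *Ntn1* and *Ntn4* higher and *Dcc* and *Unc5a* lower, against 16.3% of all genes (4.71% higher and 11.6% lower). Between pre-iPS cells and MEF 8 of the 10 were called, *Ntn1* and *Ntn4* higher in pre-iPS cells and *Ntn3*, *Dcc*, *Neo1*, *Unc5b*, *Unc5c* and *Unc5d* lower, against 43.2% of all genes (22.4% higher and 20.9% lower). The last 2 comparisons share the pre-iPS libraries, and the first 2 share the iPS libraries. Scaling to *Gapdh*, *Actb*, *Hprt* and *Tbp* moved the median log2 difference of all genes from -0.087 to 0.30 between MEF and iPS cells and from 0.058 to -0.336 between pre-iPS cells and MEF, and none of the calls above was lost. It also turned the balance of all calls from 3690 higher and 4547 lower to 5075 and 3647 between MEF and iPS cells, and from 3820 and 3563 to 2887 and 5006 between pre-iPS cells and MEF.

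**Figure D2:**
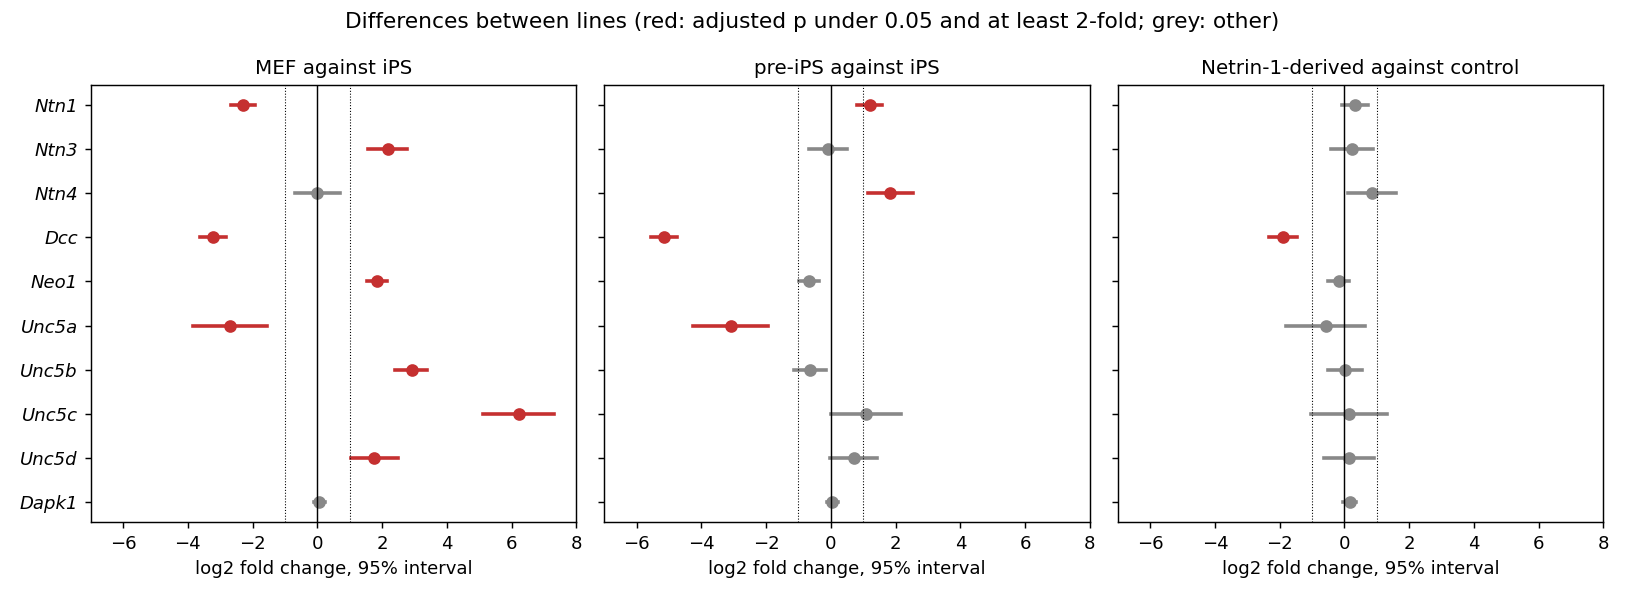
Log2 fold change of each gene with its 95% interval in 3 comparisons (points, fitted values, lines, intervals, red, called, grey, not called, dotted lines, 2-fold). *Unc5c* lies farthest to the right for MEF against iPS (6.22), *Dcc* farthest to the left for pre-iPS against iPS (-5.16), and *Dcc* is the only gene in red for Netrin-1-derived against control (-1.89).

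Since feeders are fibroblasts, the iPS and pre-iPS levels of the genes that were highest in MEF are given beside those of the fibroblast markers. Relative to MEF, iPS cells held 1.38% of *Unc5c*, within the markers' range of 0.12% to 19.1% (median 1.22%), 13.6% of *Unc5b*, above 8 of the 10 markers, and 22.7% of *Ntn3*, 27.9% of *Neo1* and 30.6% of *Unc5d*, each above all 10. In pre-iPS cells *Unc5c* was at 3.51%, *Unc5b* at 8.65% and *Neo1* at 17.4% of MEF, within the markers' range of 0.0944% to 18.5%, while *Ntn3* at 20.9% and *Unc5d* at 50.1% were above all 10. The part of fibroblast RNA in these residual levels was not tested. MEF libraries in turn held 10937 to 10944 pseudo-counts over 5 macrophage markers, against 432 to 1268 in iPS libraries and 892 to 1657 in pre-iPS libraries. *Ptprc*, *Csf1r*, *Lyz2* and *Emr1* were each highest in MEF. *Cd68* was not, at 767 and 715 in MEF, 354 to 1124 in iPS libraries and 1565 and 853 in pre-iPS cells. The part of macrophages in the MEF values was not tested.

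Levels of different genes were set side by side after division by exon length, taken as the union of GENCODE M21 exons, which makes genes with many alternative exons such as *Unc5c* read low. On this scale *Unc5b* led in MEF with a mean of 2705 pseudo-counts per kb, followed by *Neo1* with 1056 and *Unc5c* with 311, and *Ntn1* had 165. In iPS cells *Ntn1* led with 832 per kb, followed by *Unc5b* with 367 and *Neo1* with 295, and *Dcc* had 33.5. In pre-iPS cells *Ntn1* reached 1874 per kb, *Unc5b* 234 and *Neo1* 183, and *Dcc* 0.677. *Unc5b* and *Neo1* thus made up most receptor RNA in all 3 kinds of cell. *Unc5b* held 66.2% of the summed level of the 6 receptors in MEF, 53.6% in pre-iPS and 51.5% in iPS cells, while *Neo1* held 25.8%, 42.0% and 41.3%. *Dcc* held 0.0692% in MEF, 0.155% in pre-iPS and 4.70% in iPS cells.

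The ratio of *Ntn1* to its receptors together was lower in MEF than in every other library. Per exon length, *Ntn1* was 0.0411 and 0.0397 of the 6 receptors together in MEF at passages 2 and 4, 0.755 to 1.58 in iPS libraries and 3.79 and 4.89 in pre-iPS cells. The ratio of *Ntn1* to *Dcc* was lowest in the control line, at 8.46 and 14.1 for passages 5 and 25. It was 35.3 and 41.7 in clone 1, 91.3 and 51.1 in clone 2, 66.1 and 51.9 in MEF and 2572 and 2981 in pre-iPS cells. These ratios are of RNA levels and take no account of the recombinant protein given during derivation.

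**Figure D3:**
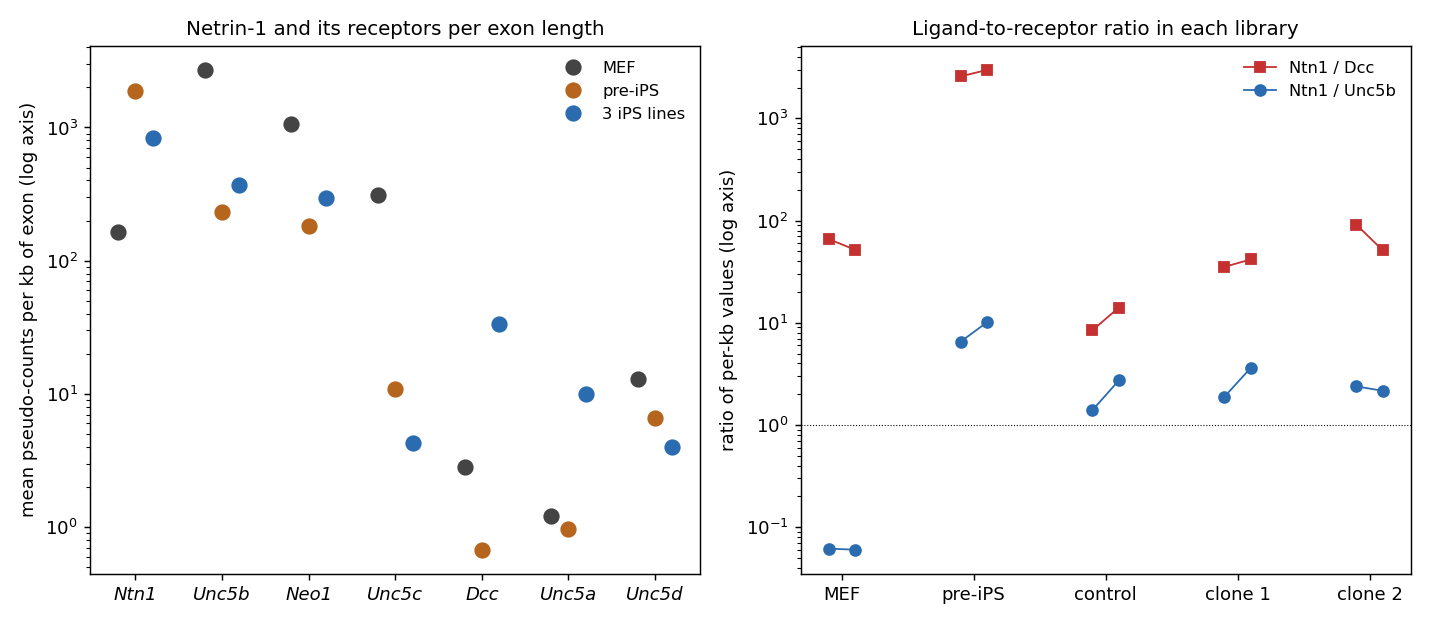
Left, mean pseudo-counts per kb of exon (log axis) of *Ntn1* and its 6 receptors in MEF, pre-iPS cells and the 3 iPS lines. Right, the ratio of per-kb values of *Ntn1* to *Dcc* (squares) and to *Unc5b* (circles) in each library (log axis, earlier passage on the left). *Ntn1* over *Unc5b* is 0.0617 and 0.0603 in MEF and above 1 in every pre-iPS and iPS library, and *Ntn1* over *Dcc* is lowest in the control line among the 5 lines.

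Among the iPS lines, *Dcc* was the only gene of the 10 that was called between the Netrin-1-derived clones and the control. Over all genes 2.11% were called (360 genes, or 564 with passage as a replicate block). All 4 libraries of the clones (152 to 312 pseudo-counts) lay below both control libraries (773 and 924), and the clones were 3.71-fold lower (log2 -1.89, SE 0.19, limma adjusted p = 0.00247). The exact two-sided permutation test of 4 against 2 libraries gave its smallest possible p, 0.0667. Taken alone, clone 1 was 2.73-fold lower than the control (log2 -1.45, SE 0.22, limma adjusted p = 0.0182) and clone 2 was 5.04-fold lower (log2 -2.33, SE 0.22, limma adjusted p = 0.00166). Clone 2 was below clone 1 at both passages, without reaching the threshold (log2 -0.88, SE 0.22, limma adjusted p = 0.0932). None of the 10 genes was called between the clones by limma or edgeR, while 0.966% of all genes were called by limma (165 genes, or 327 with the block). An unadjusted limma p under 0.05 was found for 2 of the 10 (*Dcc* and *Unc5d*), beside 2831 of all 17075 genes.

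Markers of other cells were set beside the *Dcc* difference. The 6 neural markers summed to 3565 to 4445 pseudo-counts in the control line. The sums were 3230 to 3629 in clone 1 and 3143 to 4518 in clone 2, so the summed values overlapped. Not every single marker did. *Dcx* had at most 17.4 in the control libraries and at least 26.9 in those of the clones. *Neurod1* had at most 111 in the control and at least 116 in the clones. For *Sox1*, *Pax6*, *Elavl3* and *Map2* the control and clone libraries overlapped. The 6 pluripotency markers summed to 17612 to 28742 in the control, 12180 to 18431 in clone 1 and 35978 to 42699 in clone 2, which placed the clones on either side of the control. The fibroblast sums were 22234 to 31156, 31545 to 38444 and 26536 to 31315 in the same order, and the part of any of these in the *Dcc* difference was not tested.

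The remaining 9 genes did not pass the test between the derived clones and the control. *Ntn1* had 3727 and 5175 in the control line and 4473 to 6601 in the clones (log2 0.34, 95% interval -0.06 to 0.74, limma adjusted p = 0.371). *Ntn4*, with 158 and 85.5 in the control line and 154 to 294 in the clones, had the next largest log2 difference (0.84, 95% interval 0.11 to 1.58, limma adjusted p = 0.213). The libraries overlapped for both genes, for *Ntn4* only across passages. Within each passage *Ntn4* was higher in both clones than in the control. It had 294 and 215 against 158 at passage 5, and 154 and 197 against 85.5 at passage 25. Over 20 alternative settings *Ntn4* was not called, with log2 differences of 0.41 to 1.28 and a lowest adjusted p of 0.0428 (limma or edgeR). For *Ntn1*, clone 2 lay below the control at passage 25, at 4473 against 5175. For *Ntn1*, *Ntn3*, *Neo1*, *Unc5b*, *Unc5d* and *Dapk1* the 95% intervals stayed within 1 log2 unit in either direction. Those of *Ntn4*, *Unc5a* (-1.81 to 0.64) and *Unc5c* (-1.02 to 1.3) reached past it.

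None of the 10 genes was called between passages 25 and 5 of the 4 pre-iPS and iPS lines by limma or edgeR, against 1.69% of all genes by limma. An unadjusted limma p under 0.05 was found for 5 of the 10, beside 4971 of all 17075 genes. Of these 5, 2 had an adjusted p under 0.05 with a change smaller than 2-fold, and 1869 of all genes had an adjusted p under 0.05. *Unc5b* was lower at passage 25 in 4 of 4 lines, by log2 differences of -0.51 in pre-iPS cells, -0.49 in control cells, -0.67 in clone 1 and -0.41 in clone 2 (fitted log2 -0.52, SE 0.06, limma adjusted p = 0.00498). *Ntn4* was lower at passage 25 in 4 of 4 lines, from -0.93 in clone 1 to -0.13 in clone 2 (fitted log2 -0.62, SE 0.16, limma adjusted p = 0.0483). *Ntn3* was also lower in 4 of 4 lines (-0.90 to -0.16, limma adjusted p = 0.0818), and *Unc5c* was higher in 4 of 4 (0.06 to 1.96, limma adjusted p = 0.0848), without passing the test. Passage differences of the lines went together across all genes (correlations 0.235 to 0.504), so the 4 lines are not independent observations. The share of all genes with the same sign in 4 of 4 lines was not counted. *Dcc* moved by -0.26 in the control and by 0.03 and 0.27 in clones 1 and 2, so the gap between the lines narrowed from passage 5 to passage 25 but was present at both.

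**Figure D4:**
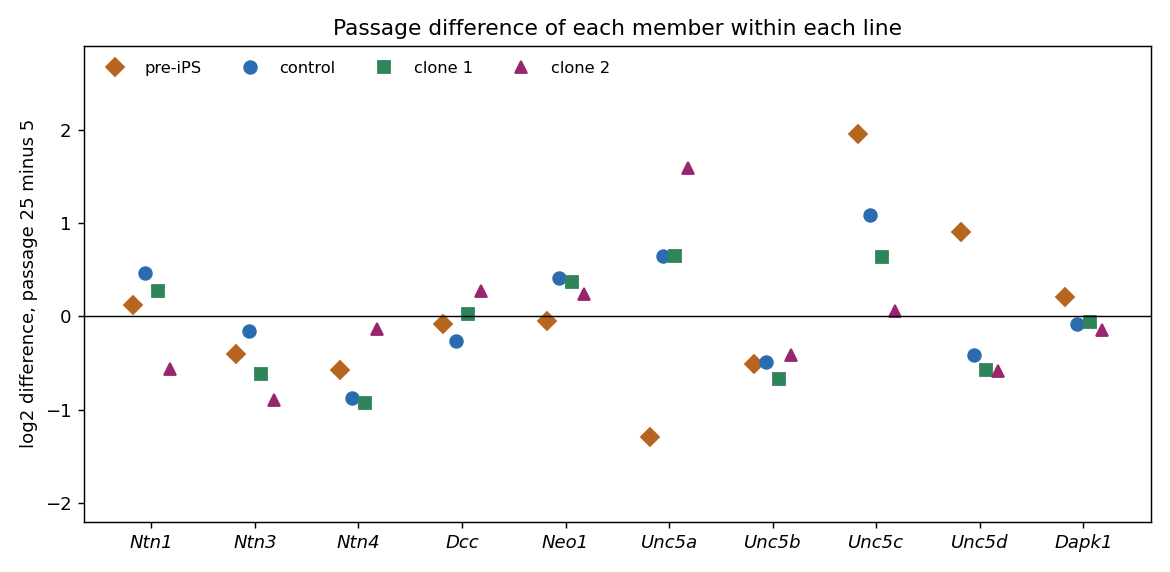
Log2 difference between passage 25 and passage 5 of each gene within each line (diamonds pre-iPS, circles control, squares clone 1, triangles clone 2). All 4 points of *Unc5b* lie between -0.67 and -0.41, while those of *Unc5a* run from -1.29 in pre-iPS cells to 1.59 in clone 2.

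The other genes of the pathway were counted in 4 lists. Of 12 other netrins and netrin-binding proteins, 2 were higher and 6 lower in MEF than in iPS cells (median log2 -1.07, against -0.087 for all genes), beside 21.6% and 26.6% of all genes. In pre-iPS cells 3 were higher and 1 lower than in iPS cells, beside 4.71% and 11.6% of all genes. *Lrrc4c*, the netrin-G1 ligand, had 253 and 269 pseudo-counts in MEF and at most 3.87 in any iPS library (log2 6.90, SE 0.46, limma adjusted p = 1.51e-06). *Ntng1*, netrin-G1 itself, was also higher in MEF, with a mean of 55.6 ± 17.0 (SD, n = 2) against 6.56 ± 4.74 (SD, n = 6) (log2 3.14, limma adjusted p = 6.39e-05). Both members of this ligand and receptor pair were therefore higher in the fibroblasts. *Itgb4*, the integrin chain that pairs with α6, was lower in MEF, at 412 and 427 against 2834 to 11396 (log2 -3.62, SE 0.39, limma adjusted p = 2.76e-05), as was *Dscaml1*, a relative of the netrin receptor Dscam, at 0.00744 and 1.15 against 67.7 to 161 (log2 -6.23, limma adjusted p = 2.35e-07). In pre-iPS cells *Mcam*, an adhesion molecule that binds netrin-1, had 3593 and 4752 against 1227 to 3249 in iPS cells (log2 1.21, SE 0.16, limma adjusted p = 0.000581), *Ntn5* was higher (log2 1.46, limma adjusted p = 0.017) and *Lrrc4* lower (log2 -2.43, limma adjusted p = 0.00388). *Mcam* was also the only gene of the 58 in the 4 lists called between the clones, beside 0.966% of all genes. It had 2510 and 3249 in clone 2 and 1227 and 1595 in clone 1 (log2 1.03, SE 0.19, limma adjusted p = 0.0442). *Dscam* was the only one of the 58 called with passage, beside 1.69% of all genes (log2 1.03, SE 0.21, limma adjusted p = 0.0274).

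Of 7 other ligands of the same receptors, 3 were higher and 1 lower in MEF than in iPS cells (median log2 0.69), beside 21.6% and 26.6% of all genes, and 1 was lower in pre-iPS than in iPS cells, beside 11.6%. *Flrt2*, a ligand of Unc5 receptors, had 11164 and 11570 in MEF and 936 to 1762 in iPS cells (log2 3.14, SE 0.14, limma adjusted p = 1.52e-07), and its relative *Flrt1* had 437 and 454 against 21.3 to 40.7 (log2 3.95, SE 0.21, limma adjusted p = 3.69e-07). Both encode adhesion proteins of the cell surface. *Hfe2*, which encodes hemojuvelin, a ligand of neogenin, had no reads in either MEF library and a mean of 54.5 ± 22.4 (SD, n = 6) in iPS cells, at least 32.5-fold higher when MEF is set to a floor of 3 reads over both libraries. It had 5.1 and 6.72 in pre-iPS cells (log2 -2.91 against iPS, limma adjusted p = 8.5e-05).

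Of 26 intracellular partners in Dcc and Unc5 signalling, 5 were higher and 5 lower in MEF (median log2 0.52), beside 21.6% and 26.6% of all genes. In pre-iPS cells 0 were higher and 4 lower than in iPS cells (median log2 0.01), beside 4.71% and 11.6% of all genes. *Prkca*, the protein kinase Cα gene, had 3728 and 3803 in MEF and 423 to 542 in iPS cells (log2 3.0, SE 0.09, limma adjusted p = 1.89e-08), and *Trim9*, a ubiquitin ligase that binds Dcc, was higher as well (log2 1.78, limma adjusted p = 0.0204). *Trim67*, the close relative of *Trim9*, went the other way, at 3.59 and 4.22 in MEF and 5.1 and 7.68 in pre-iPS cells against 73.4 to 154 in iPS cells (log2 -4.29 and -3.72, limma adjusted p = 2.4e-06 and 5.59e-05). The actin-binding gene *Ablim3* was also lower in pre-iPS than in iPS cells (log2 -3.06, SE 0.46, limma adjusted p = 0.0012).

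Of 13 genes in the death arm of the dependence receptors, 2 were higher and 1 lower in MEF (median log2 0.07), beside 21.6% and 26.6% of all genes. In pre-iPS cells 0 were higher and 1 lower, beside 4.71% and 11.6% of all genes, and the other 10 and 12 did not pass the test. *Maged1*, whose product binds Unc5 receptors, had 36861 and 37238 in MEF and 8370 to 10605 in iPS cells (log2 1.98, SE 0.10, limma adjusted p = 2.4e-07), and *Stk17b*, a kinase related to Dapk1, had 3974 and 4248 against 872 to 1070 (log2 2.07, SE 0.12, limma adjusted p = 5.18e-07). *Dapk2*, another relative of *Dapk1*, was lower in MEF (log2 -1.59, SE 0.32, limma adjusted p = 0.00156) and in pre-iPS cells (log2 -1.79, SE 0.32, limma adjusted p = 0.00283). Between the derived clones and the control, *Dcc* was the only called gene among the 10 genes and the 58 of the lists, beside 2.11% of all genes.

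Over the 10 libraries, the genes whose log2 levels followed *Ntn1* most closely among 14043 genes with a mean of at least 50 were *Rfx7* (Pearson r = 0.994), *1700047E10Rik* (0.991), *Lap3* (0.990), *Gsr*, which encodes glutathione reductase (0.989), and *Fam108c* (0.988). *Gsr*, for example, had means of 1459 in MEF, 9303 in pre-iPS and 5610 in iPS cells. Those closest to *Unc5b* were *Ier3ip1* (0.996), *Tmem167* (0.995), *Sparc*, a secreted matrix protein (0.995), *Kdelr3*, a retrieval receptor for proteins of the endoplasmic reticulum (0.995), and *Adc* (0.994). *Sparc* had means of 368392 in MEF, 8499 in pre-iPS and 16578 in iPS cells. The 10 points of each correlation come from 5 lines and share their libraries, so these values are a description.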

How the data were processed

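RNA-sequencing libraries (polyadenylated RNA, unstranded kit, 50-nt single reads, 1 lane) were processed by the authors. The submitters' processing notes name FastQC, CASAVA 1.8.2, TopHat2 2.0.8b, HTSeq 0.5.3p9, edgeR and mm10. Annotation and strand setting are not given in the sources used here. The authors deposited 1 table of edgeR pseudo-counts, a normalized signal in which counts were brought to a common library size. The lowest summed count of any listed gene was 10 reads. Whole reads were recovered from the steps of the values (within 0.05 read, 99.99 to 100% of values).

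Genes with at least 10 pseudo-counts in at least 2 libraries were fitted with limma 3.58.1 (R 4.3.3, lmFit, eBayes with trend) on log2(value + 1), with 1 mean per line over 10 libraries, and the line as a block for passage. Benjamini-Hochberg adjustment ran over 17075 genes. Fold changes are on that scale and understate changes of low genes. A call needed an adjusted p under 0.05 together with a difference of 1 log2 unit or more. Same-numbered passages deviated together in all 6 pairs of pre-iPS and iPS lines (correlations 0.235 to 0.504), and a fit with passage as a block was run as an alternative. Named genes of the lists are up to 2 higher and 2 lower with the largest fold change among called genes without overlapping libraries (*Mcam* and *Dscam* in the clone and passage comparisons were picked with their values known). A gene that this rule selects is not reported here. The members and lists were chosen with earlier results of these data known. Alternatives were other pseudocounts (5 and 0.5), filters, scalings, edgeR 4.0.16 on recovered reads and leaving out each library. Each clone against the control alone was added after seeing the data. The tests were tested on simulated data.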

Additional observations from a re-analysis of the deposited data

Results flagged for a closer look

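In 5 cases the passage difference (log2, passage 25 minus passage 5) had opposite signs in different groups of lines, with 1 pair of libraries per line. None of these differences was tested. *Unc5a* differed by -1.29 in pre-iPS cells and by 0.65 to 1.59 in the 3 iPS lines, on 2 and 6 reads in the pre-iPS libraries. *Unc5d* differed by 0.90 in pre-iPS cells and by -0.59 to -0.41 in the iPS lines. *Dapk1* differed by 0.21 in pre-iPS cells and by -0.14 to -0.06 in the iPS lines. *Neo1* differed by -0.05 in pre-iPS cells and by 0.24 to 0.41 in the iPS lines. *Dcc* differed by -0.26 in the control line and by 0.03 to 0.27 in the clones. No library stood apart by Dixon's criterion for any of the 10 genes among the 6 iPS libraries or the 4 Netrin-1-derived libraries (20 sets of values, of which chance alone would mark about 1 in 20).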

How the results depend on the processing

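The called genes kept their direction and call under all alternatives run in MEF against iPS cells (8 genes), pre-iPS against iPS cells (4 genes) and Netrin-1-derived against control (*Dcc*, log2 -2.02 to -1.76, adjusted p 0.000986 to 0.0285), except that a mean of at least 50 removes *Unc5a* from the test. In pre-iPS against MEF *Unc5d* lost its call with a pseudocount of 5 and in a fit of only the lines compared (adjusted p = 0.0689), beside the libraries named above, while the other 7 genes kept theirs under all alternatives run. *Unc5c* between pre-iPS and iPS cells was also called after quantile normalization (log2 1.43) and by edgeR (1.36), and *Unc5d* after quantile normalization (1.25). With passage as a replicate block the number called between pre-iPS and iPS cells was 5, and no other call of the 10 genes changed. With the adjusted p alone, 2 of the 10 genes passed for passage, beside 1869 of all genes.

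Uncalled differences near 0 changed sign, and the cause was not tested. After quantile normalization *Dapk1* was -0.15 for MEF against iPS, 0.15 for pre-iPS against MEF and 0.02 for passage, *Ntn3* was 0.20 for pre-iPS against iPS, and *Dcc* was 0.03 for passage (0.01 by edgeR). After scaling to 4 housekeeping genes *Neo1* was -0.04 between the clones. Leaving out single libraries gave, for pre-iPS against iPS, -0.29 to 0.11 for *Ntn3* and -0.06 to 0.16 for *Dapk1*. For pre-iPS against MEF it gave -0.12 to 0.09 for *Dapk1* and -1.04 to 0.25 for *Unc5a*. For the derived clones against the control it gave -0.41 to 0.69 for *Unc5c*, -0.23 to 0.26 for *Unc5b*, -0.07 to 0.34 for *Unc5d* and -0.39 to 0.02 for *Neo1*. For clone 2 against clone 1 it gave -0.48 to 0.41 for *Ntn3*, -0.51 to 0.42 for *Ntn4*, -0.17 to 0.20 for *Neo1*, -0.19 to 0.48 for *Unc5b*, -0.34 to 0.22 for *Ntn1* and -0.23 to 1.36 for *Unc5a*. For passage it gave -0.10 to 0.07 for *Dcc*, -0.09 to 0.02 for *Dapk1* and -0.06 to 0.29 for *Ntn1*. A line left with 1 library was assumed to vary like the others.

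The share of all genes called depended more on the settings. For the derived clones against the control 360 genes were called, 120 without the control library of passage 25, 146 without that of passage 5, 199 without clone 2 at passage 5, 237 and 236 without either MEF library and 134 in a fit of only the iPS lines. Between the clones 165 were called, 14 to 260 on leaving out a library and 6 in a fit of only the clones. With passage 289 were called, 94 to 171 without a library of clone 1 or of pre-iPS cells and 6 without the line as a block. Between pre-iPS and iPS cells the calls were 804 higher and 1977 lower, and 1366 and 1499 after quantile normalization, while a mean of at least 50 left 1758 calls of 2781. *Unc5a* in MEF and pre-iPS cells and *Dcc* in pre-iPS cells rest on 2 to 9 reads per library.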
